A study of Mus musculus with 23 samples.

Results

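Nicotine inhaled with e-cigarette vehicle was compared with the vehicle alone in the left ventricle of FVB mice whose exposure began at 3 weeks of age, by RNA sequencing. All libraries titled as young nicotine (n = 4, replicates 2, 3, 5 and 6) and young vehicle (n = 3, replicates 1, 2 and 4) were taken, 7 of the 23 libraries of the series. Exposure lasted 3 months, with daily sessions of 4 hours on 5 days of each week, in every group. Libraries of mice in filtered air from the same age (n = 4) gave a level to set beside both groups, and 8 libraries of mice that started at 3 months of age (4 nicotine, 4 vehicle) gave the same contrast in other libraries. The labels name no animal, sex, batch or nicotine dose. The tests therefore weigh differences against the spread among libraries alone, and part of that spread may be technical. The spread was estimated over all 23 libraries, which include air libraries of mice that started at 3 months of age. In bulk tissue, fewer cells of a type and less RNA per cell cannot be told apart.

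The adult heart draws most of its energy from fatty acids. They enter the cardiomyocyte through surface transporters, are activated to acyl-CoA, cross the inner mitochondrial membrane as carnitine esters and are shortened by beta-oxidation, while pyruvate dehydrogenase admits carbon from glucose into the same tricarboxylic acid cycle. Many of these enzymes are transcribed under the nuclear receptor PPAR-alpha, which binds fatty acids. Nicotine opens acetylcholine-gated ion channels of neurons and the adrenal medulla and thereby releases catecholamines, which act on the heart and on adipose tissue.

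Totals were 12297955 to 14713765 counts in nicotine and 12994778 to 15137780 in vehicle libraries. The 8 ventricular markers (among them Myh6, Myl2 and Tnnt2) had a mean log2 CPM (counts scaled to library size) of 12.91 to 13.24 in nicotine and 12.95 to 13.43 in vehicle, which fits the labelled tissue. The libraries did not separate by group. The first principal component of the 7 libraries held 60.4% of the variance and placed nicotine 3, nicotine 6 and vehicle 4 at 45.9, 44.2 and 35.4, against -7.06 and -14.2 for nicotine 5 and 2 and -41.7 and -62.5 for vehicle 2 and 1. Vehicle 1 and 2 thus stood apart from vehicle 4. Genes that do not code for protein took 2.61% and 2.24% of their counts, against 1.47% in vehicle 4 and 1.42 to 3.18% in nicotine, highest in nicotine 3. Across genes, the rank correlation of level with exonic length was 0.235 and 0.236 in vehicle 1 and 2 and 0.237 and 0.247 in nicotine 2 and 5, against 0.302, 0.291 and 0.305 in vehicle 4, nicotine 3 and nicotine 6, the same division as on the first component. It was 0.273 to 0.303 in air. Atrial markers had a mean log2 CPM of 3.25, 5.39 and 2.0 in vehicle 1, 2 and 4 and of 1.97 to 3.82 in nicotine, with 8 of 8 measured markers negative and the atrial ligand gene Bmp10 at 0 to 2 counts. The atrial median was -0.86, 0.08 without vehicle 2 and 0.30 without vehicle 1 and 2. With a gene length offset, 41 of the 43 genes of fatty acid uptake and oxidation described below were positive and 0 passed an adjusted p of 0.05 (edgeR). The noncoding share as a covariate gave the same counts, but that share does not follow the division, being highest in nicotine 3. Beyond such settings, the part of these differences in the results was not tested. Of 208 genes selected by a rule on p-values within the whole table and within lists, 78 had the opposite sign when vehicle 1 and 2 were left out, so list medians without them are given below. Those medians set vehicle 4 alone against nicotine libraries on both sides of this division. A median that shrinks or turns there cannot be assigned to vehicle 1 and 2 rather than to that imbalance. The division was seen in these data, and its part was not tested.

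No gene passed an adjusted p of 0.05 among the 15500 tested (edgeR quasi-likelihood test, 0% called). At an unadjusted p under 0.05 there were 2992 (19.3%), 1373 higher (8.86%) and 1619 lower (10.4%) with nicotine. DESeq2 gave an adjusted p for 9227 genes and called 260 of these (2.82%), 121 higher (1.31%) and 139 lower (1.51%). Vehicle 4 decided the edgeR count: with that library left out, 4793 genes passed (30.3%), of which 2606 were higher (16.5%) and 2187 lower (13.8%), and leaving out each of the other 6 gave 0. As a description that needs no model, 391 genes (2.52%) had every nicotine library above every vehicle library, and 366 (2.36%) had every nicotine library below. These shares are the background for each count of non-overlapping genes below. The gene lists were chosen with earlier results of these data known, so such counts describe their members and are no test. Over all genes the median log2 fold change, nicotine minus vehicle, was -0.02, and 48.2% were positive. Fold changes below are log2 ± SE, levels are CPM, and adjusted p-values are edgeR's unless DESeq2 is named.

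Genes of fatty acid uptake and oxidation were higher with nicotine than with vehicle in 41 of 43 cases, and 18 of the 43 (41.9%) had every nicotine library above every vehicle library, with 0 the other way. The median fold change was 0.48. None passed the adjusted threshold in edgeR, while 35 had an unadjusted p under 0.05 in the higher and 1 in the lower direction. DESeq2 called 23 of the 41 members that it tested, all higher. The mean log2 CPM of the list was 7.81, 7.93, 7.75 and 7.99 in nicotine 2, 3, 5 and 6, 7.21, 7.24 and 7.59 in vehicle 1, 2 and 4, and 7.6 to 7.85 in air. Vehicle 4 lay below every nicotine library in 23 genes (53.5%, against 16% of all genes), and vehicle 1 and vehicle 2 did so in 36 each (83.7%, against 34.3% and 26.4%). Without vehicle 1 and 2 the median was 0.18, with 40 of 43 positive.

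**Figure D1:**
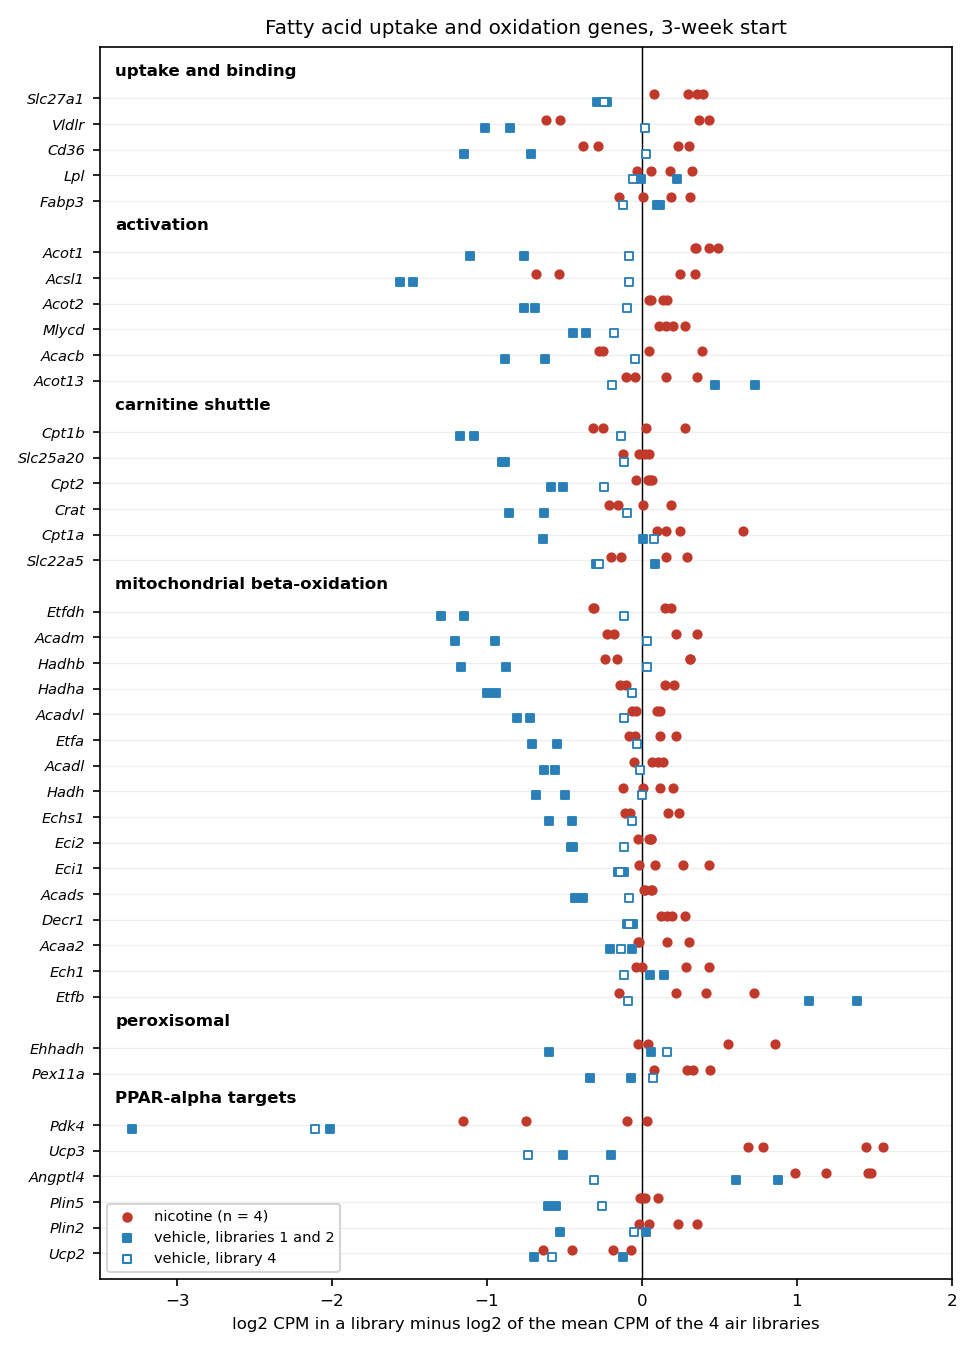
Log2 CPM of 41 of the 43 fatty acid genes in each nicotine library (red circles) and vehicle library (blue squares, open for vehicle 4), each minus log2 of the mean CPM of the 4 air libraries, grouped by role. In 17 of the genes shown all red points lie to the right of all blue ones, and Etfb and Acot13 run the other way.

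The 250 bases before the RefSeq start were searched on both strands for letters read by nuclear receptors, a class that includes ERR and PPAR. The search used the RefSeq promoter windows of build GRCm38.p6, which held 34 of the 43 genes by symbol. The extended half-site TNAAGGTCA, of the ERR type, was found in 0 of 34, against 352 of the 27025 genes in the table (1.30%). The core AGGTCA and the spaced repeat AGGNCA, any base, AGGNCA were added after that result was seen. The core was found in 8 of 34 (23.5%) against 4260 genes (15.8%), and the repeat in 0 of 34 against 108 genes (0.400%). The core is part of the extended site, and of the repeat where its N is T. The windows of Ucp3 (chr7:100472741-100472990, plus strand) and Acadvl (chr11:70015429-70015678, minus strand) are printed as examples with a core and non-overlapping groups, as also in Cpt1a and Plin5. They read 5′ to 3′ on the gene's strand, with each core on either strand in capitals.
Ucp3: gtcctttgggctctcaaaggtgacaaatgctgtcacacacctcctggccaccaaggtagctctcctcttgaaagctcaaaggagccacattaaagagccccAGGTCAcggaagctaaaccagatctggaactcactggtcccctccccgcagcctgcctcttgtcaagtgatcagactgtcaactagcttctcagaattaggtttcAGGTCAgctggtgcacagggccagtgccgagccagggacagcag
Acadvl: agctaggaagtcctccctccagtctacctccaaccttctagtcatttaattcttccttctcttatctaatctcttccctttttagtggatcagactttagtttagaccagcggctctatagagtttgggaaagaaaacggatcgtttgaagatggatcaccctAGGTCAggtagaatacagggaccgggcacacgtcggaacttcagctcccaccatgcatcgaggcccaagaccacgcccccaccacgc

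All 5 genes of uptake and binding were positive, and 3 had an unadjusted p under 0.05 (edgeR), against 8.86% of all genes in that direction. None passed the adjusted threshold and 1 did not overlap. That gene, Slc27a1, encodes a fatty acid transport protein of the plasma membrane. Its level was 296, 244, 285 and 305 CPM in nicotine 2, 3, 5 and 6, 198, 190 and 195 in vehicle 1, 2 and 4, and 221 to 249 in air. The 3 vehicle libraries were close together and below all others, and the fold change was 0.54 ± 0.11 (adjusted p = 0.0783). Cd36, the receptor that takes up long-chain fatty acids, was at 1021, 1460, 956 and 1533 CPM with nicotine and 560, 757 and 1267 with vehicle (0.53 ± 0.20, adjusted p = 0.184). Vehicle 4 fell among the nicotine libraries here, and without vehicle 1 and 2 the value was -0.05.

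In the activation group 5 of 6 genes were positive and 3 did not overlap. Mlycd, which degrades malonyl-CoA, the inhibitor of carnitine transfer, was at 148, 140, 132 and 136 CPM with nicotine and 89.3, 95 and 108 with vehicle (0.51 ± 0.12, adjusted p = 0.122). The mitochondrial thioesterase gene Acot2 was at 80.1, 74.6, 74 and 78.8 CPM against 42.2, 44.3 and 66.9 (0.59 ± 0.16, adjusted p = 0.125). Both had their highest vehicle value in vehicle 4, below the lowest nicotine value. Acot1, a close paralogue whose reads may be shared with Acot2, was at 9.46 to 10.5 CPM against 4.41, 3.47 and 7.05 (0.99 ± 0.31).

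The carnitine shuttle carries acyl groups over the inner membrane, and all 6 of its genes were positive. Cpt2, the transferase of the inner membrane, was at 222, 219, 207 and 220 CPM with nicotine and 149, 141 and 179 with vehicle, without overlap (0.47 ± 0.11, adjusted p = 0.122). Slc25a20, the carnitine carrier itself, was at 152, 148, 138 and 155 CPM against 80.1, 81.3 and 138, where vehicle 4 met nicotine 5 (0.57 ± 0.15, adjusted p = 0.125). Of the outer membrane transferases, Cpt1a did not overlap (0.45 ± 0.17) and Cpt1b, the muscle form, did (0.67 ± 0.20).

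Among 16 genes of mitochondrial beta-oxidation 15 were positive, and 6 did not overlap, namely Acadvl, Acads, Eci1, Eci2, Decr1 and Acaa2. Acadvl, the dehydrogenase that starts the cycle on very long chains, was at 893, 991, 875 and 981 CPM with nicotine, 556, 523 and 844 with vehicle and 807 to 1021 in air. All nicotine libraries lay within the air range and vehicle 1 and 2 below it, and the fold change was 0.54 ± 0.13 (adjusted p = 0.122). Hadha, a subunit of the trifunctional protein, was at 1507, 1798, 1468 and 1870 CPM against 810, 841 and 1546, with vehicle 4 among the nicotine libraries (0.64 ± 0.16, adjusted p = 0.125). Acadm, the medium-chain dehydrogenase, was at 1147 to 1718 CPM against 582, 696 and 1370 (0.67 ± 0.20). Etfb, a subunit of the flavoprotein that accepts the electrons, ran the other way at 410, 290, 331 and 224 CPM against 650, 524 and 233 (-0.58 ± 0.22, adjusted p = 0.184), as did the thioesterase gene Acot13 of the activation group (-0.29 ± 0.15). In both the high values were those of vehicle 1 and 2, and without them the values were 0.40 and 0.27.

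Peroxisomes shorten the longest chains. All 3 genes of this group were positive. Pex11a, which takes part in peroxisome division, was at 21.8, 18.8, 24.2 and 22.4 CPM with nicotine and 17, 14.2 and 18.8 with vehicle, with a gap too small to show at this rounding (0.39 ± 0.13, adjusted p = 0.166).

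The 7 further PPAR-alpha targets were all positive, and 5 did not overlap, among them Pdk4, Ucp3, Plin5 and Angptl4. Pdk4, the kinase that switches off pyruvate dehydrogenase, was at 205, 427, 272 and 466 CPM with nicotine, 46.5, 113 and 106 with vehicle and 567, 412, 132 and 711 in air. Here vehicle 4 lay with the other vehicle libraries, and the fold change was 1.95 ± 0.43 (adjusted p = 0.122). Ucp3, an inner membrane carrier of muscle, was at 46.7, 74.2, 43.8 and 80.1 CPM with nicotine, 19.1, 23.7 and 16.4 with vehicle and 32.9, 32, 18.9 and 24.9 in air, and every nicotine library lay above all others (1.63 ± 0.39, adjusted p = 0.122). Plin5, which coats lipid droplets, was at 131 to 142 CPM against 87, 90 and 111 (0.49 ± 0.14, adjusted p = 0.139). Angptl4, a secreted inhibitor of lipoprotein lipase, was at 4.8 to 6.72 CPM against 3.67, 4.44 and 1.95, with a wide error (0.82 ± 0.56).

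Against air, every nicotine library lay above every air library in 3 of the 43 genes (6.98%, against 2.57% of all genes), Ucp3 and Angptl4 among them. The median of the list was 0.07 for nicotine minus air and -0.40 for vehicle minus air. These comparisons share the air libraries, and each shares a treated group with nicotine minus vehicle. Over all genes, 126 (0.813%) passed for nicotine minus air and 2509 (16.2%) for vehicle minus air.

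**Figure D2:**
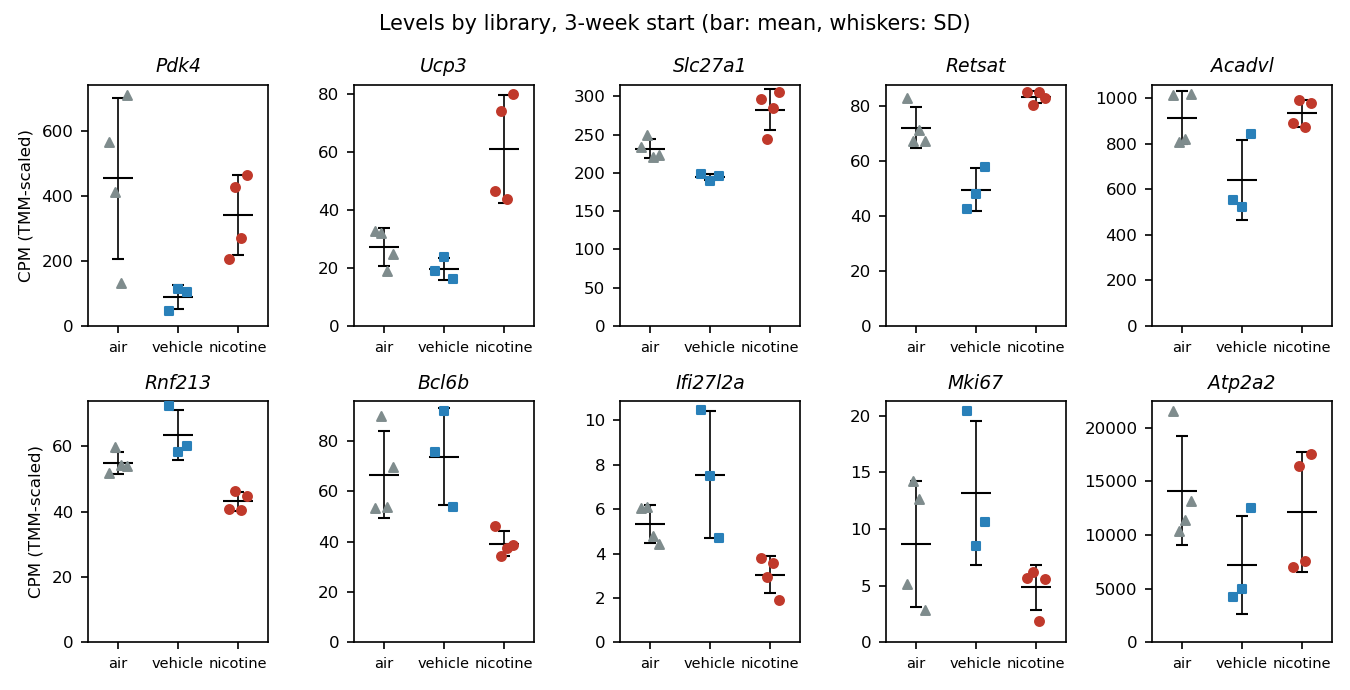
TMM-scaled CPM of 10 genes in each air (grey, n = 4), vehicle (blue, n = 3) and nicotine library (red, n = 4) of the 3-week start, with mean and SD. Every nicotine library is above every vehicle library in Ucp3, Slc27a1, Retsat, Pdk4 and Acadvl and below in Rnf213, Bcl6b, Ifi27l2a and Mki67, and Atp2a2 overlaps.

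The 10 higher genes with the smallest p over the whole table included several of lipid and mitochondrial metabolism, and the groups of all 10 did not overlap. Retsat, a retinol saturase, was at 84.9, 80.4, 85 and 82.7 CPM with nicotine, 42.3, 48 and 57.8 with vehicle and 67 to 82.9 in air, and had the smallest p of all genes (0.75 ± 0.12, adjusted p = 0.0593). Slc25a34, a mitochondrial carrier, was at 216, 256, 201 and 262 CPM against 105, 117 and 163 (0.87 ± 0.16, adjusted p = 0.0783). Slc25a42, the mitochondrial coenzyme A carrier, was at 90.2, 101, 89.7 and 114 CPM against 57.8, 62.9 and 71.9 (0.62 ± 0.12, adjusted p = 0.087). Slc27a1, Pdk4 and Cpt2 were described above. The others were the mitochondrial ribosomal protein gene Mrps22 (0.50 ± 0.11), the inositol phosphatase gene Impa2 (0.63 ± 0.14), the secreted factor gene Vwc2 (1.03 ± 0.23) and the acetyltransferase gene Kat5 (0.41 ± 0.09). Vehicle minus air passed for Retsat (-0.54, adjusted p = 0.0187), Pdk4 (-2.37, adjusted p = 0.0141), Slc25a34, Slc25a42, Mrps22, Impa2 and Cpt2, each lower with vehicle. It did not pass for Slc27a1, Vwc2 and Kat5. None of the 10 passed for nicotine minus air.

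Lists of other mitochondrial fuel pathways had positive medians, with no gene past the adjusted threshold. In the tricarboxylic acid cycle 18 of 20 genes were positive (median 0.35), and Fh1, Idh3b and Idh3g did not overlap (15%). Fh1, fumarase, was at 504, 539, 481 and 503 CPM against 370, 371 and 450, with air at 457 to 515 (0.35 ± 0.09, adjusted p = 0.122), and the dehydrogenase subunit gene Idh3b at 952, 993, 923 and 949 against 690, 706 and 874 (0.33 ± 0.09). Catabolism of branched-chain amino acids and ketones had 18 of 18 positive (median 0.37), with Mccc2 and Bckdhb not overlapping (11.1%) and Hibadh, of valine breakdown, at 221, 274, 228 and 270 CPM against 138, 142 and 243 (0.51 ± 0.15). Pyruvate dehydrogenase with its regulators had 11 of 12 positive (median 0.35), with Pdhb and Mpc1 not overlapping (16.7%). Dld, the subunit shared with related complexes, was at 357, 594, 331 and 540 CPM against 219, 217 and 439, so that nicotine 2 and 5 lay below vehicle 4. Without vehicle 1 and 2 the medians of these 3 lists were 0.08, 0.01 and 0.03, with vehicle 4 alone against all nicotine libraries. The tricarboxylic acid cycle mean was 9.69 and 9.67 log2 CPM in nicotine 2 and 5 against 9.33 and 9.23 in vehicle 1 and 2. It was 9.89 and 9.87 in nicotine 3 and 6 against 9.69 in vehicle 4. The means of the other lists of this paragraph had the same order.

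The regulators had a smaller median. Of 18 PGC-1, ERR and PPAR genes 14 were positive (median 0.22) and 0 were without overlap, and the median was -0.02 without vehicle 1 and 2. Tfam, a transcription and packaging factor of mitochondrial DNA, was at 36.5 to 48.9 CPM against 24, 31.3 and 40.2 (0.40 ± 0.13, adjusted p = 0.162), and Klf15, a regulator of cardiac lipid use, at 56.1 to 75.9 against 37.4, 38.6 and 63.8 (0.49 ± 0.22). The coactivator gene Ppargc1b was at 26.6, 26.5, 21.2 and 22.9 CPM against 47.3, 40 and 19.3 (-0.55 ± 0.22), and the value was 0.31 without vehicle 1 and 2. Of 35 nuclear subunits of the respiratory chain 16 were positive (median -0.12), and of complex IV 0 of 8. The median of the chain was 0.02 with a gene length offset, 0.04 without vehicle 1 and 0.21 without vehicle 1 and 2. Uqcrc2, of complex III, was at 914, 1051, 910 and 1109 CPM against 600, 555 and 977 (0.49 ± 0.14, adjusted p = 0.14).

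**Figure D3:**
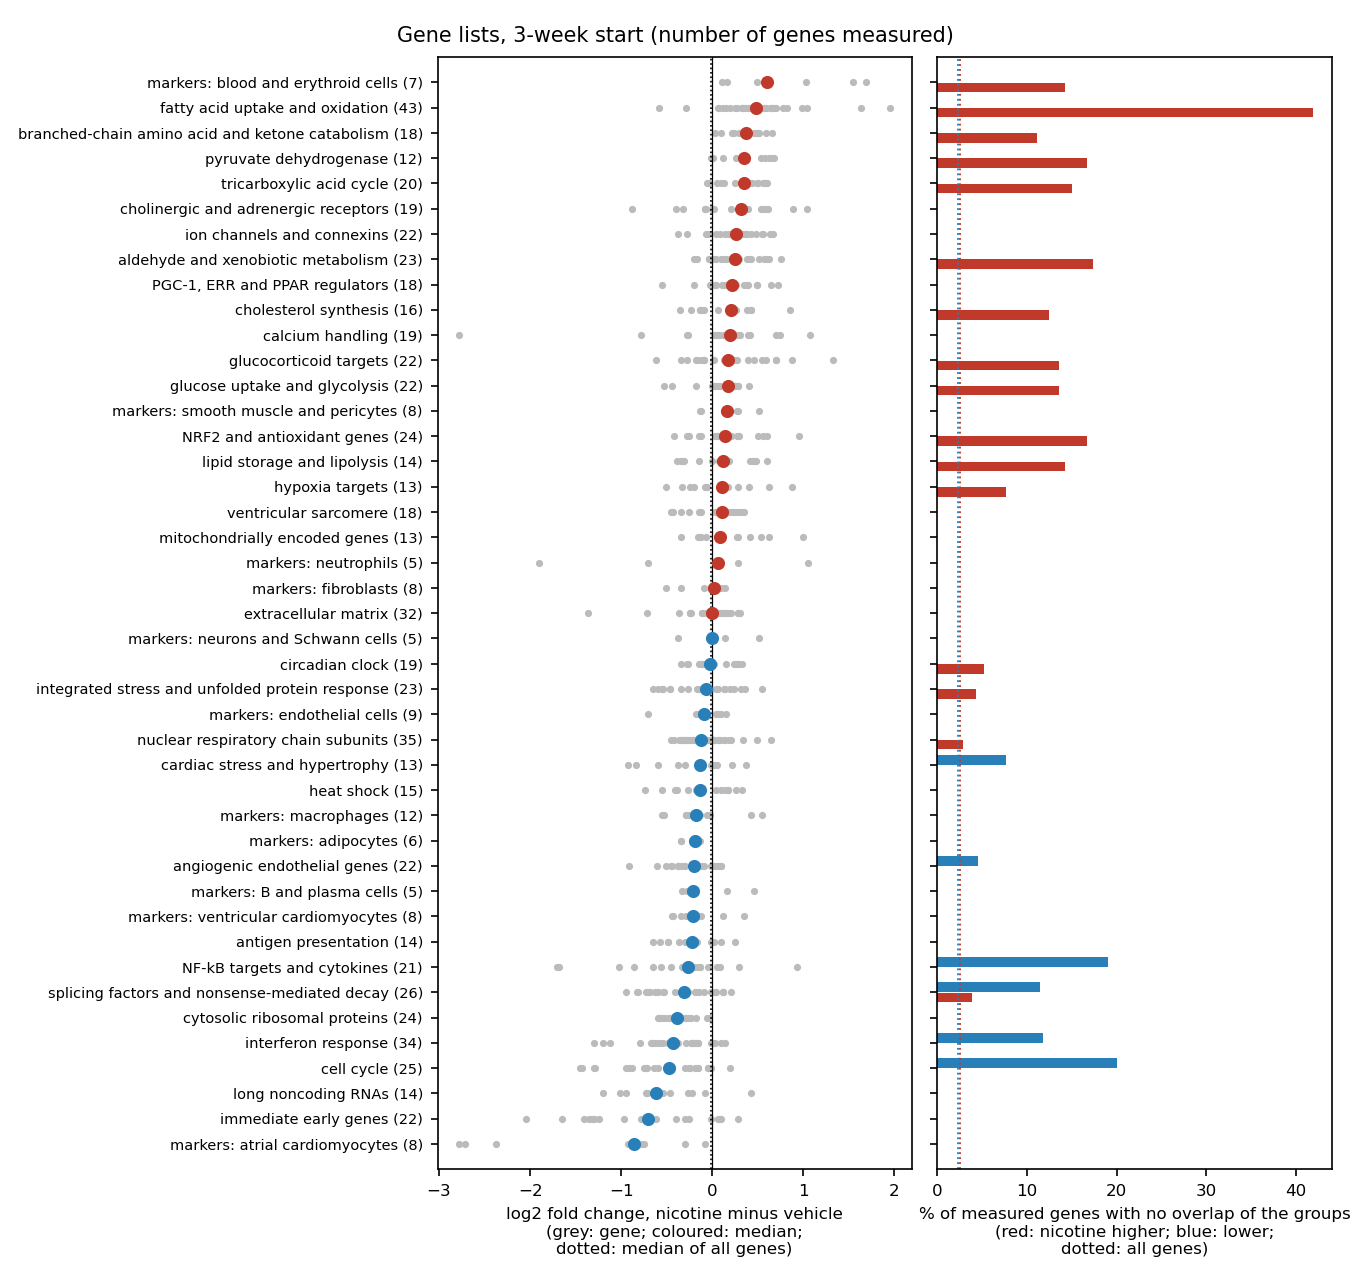
Left, log2 fold change of each measured gene (grey) and the list median (red above 0, blue below) for lists with at least 5 measured genes. Right, the share of measured genes whose nicotine libraries all lie above (red) or below (blue) all vehicle libraries, with dotted lines at the 2.52% and 2.36% of all genes. The fatty acid list has the longest bar, at 41.9%.

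In aldehyde and xenobiotic metabolism 19 of 23 genes were positive (median 0.25, and 0.09 without vehicle 1 and 2), and Retsat, Ephx2, Aldh2 and Fmo2 did not overlap (17.4%). Aldh2, the mitochondrial aldehyde dehydrogenase, was at 450, 395, 426 and 400 CPM against 295, 346 and 384 (0.29 ± 0.10, adjusted p = 0.166), and Ephx2, soluble epoxide hydrolase, at 278, 272, 242 and 269 against 184, 176 and 239 (0.41 ± 0.11, adjusted p = 0.14). In both, vehicle 4 came close to the lowest nicotine library. Cyp1a1, which the aryl hydrocarbon receptor induces, was at 0 counts in all 7 libraries. Of 24 NRF2 and antioxidant genes 19 were positive (median 0.14, and 0.13 without vehicle 1 and 2), and Gclm, Hmox1, Sod2 and Gstm2 did not overlap (16.7%). Hmox1, heme oxygenase, was at 23.2, 12.3, 13.2 and 14.1 CPM against 3.97, 11.5 and 8.81 (0.95 ± 0.31, adjusted p = 0.159), and Gclm, of glutathione synthesis, at 26.1 to 32.7 against 14.4, 20.4 and 22.1 (0.60 ± 0.19, adjusted p = 0.156). Catalase (Cat) was at 206 to 261 CPM against 114, 135 and 232 (0.55 ± 0.16), and at -0.01 without vehicle 1 and 2.

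Transcripts of most subunits of the receptors that nicotine binds were scarce in this tissue, and receptor protein was not measured. Of 16 nicotinic subunit genes 4 passed the filter on low counts, and the other 12 had at most 3 counts in any of the 7 libraries, with Chrna7 at 0 to 2. Chrnb1, the muscle subunit, was at 9.46, 4.36, 10.7 and 6.71 CPM against 18.5, 18.9 and 6.04 (-0.88 ± 0.29, adjusted p = 0.158), with the high values in vehicle 1 and 2. Chrna10 (-0.40 ± 0.32), Chrnb2 (-0.32 ± 0.30) and Chrna2 (0.59 ± 0.59) were each below 5 CPM. The median of all 19 measured cholinergic and adrenergic genes was 0.32, but -0.12 without vehicle 1 and 2. Of 11 adrenergic genes 7 were positive, among them the receptor gene Adra1b at 37.1, 36.2, 32.5 and 43.3 CPM against 22.2, 15.6 and 34.9 (0.62 ± 0.20, adjusted p = 0.152).

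Of 34 measured interferon-induced genes 30 were negative and none passed the adjusted threshold (median -0.44), and Rnf213, Ifi27l2a, Gbp7 and Ddx58 did not overlap (11.8%). The promoter motif of such genes, GAAA, any 2 bases, GAAA, lay in the 250 upstream bases, on either strand, of 11 of the 24 with a RefSeq window (45.8%), against 936 of 27025 genes (3.46%). That share describes the members, not the treatment. Gbp7 (chr3:142530086-142530335, plus strand) and Oas1a (chr5:120907526-120907775, minus strand) are printed as members with a match, in capitals. The matches in Oas1a overlap each other.
Gbp7: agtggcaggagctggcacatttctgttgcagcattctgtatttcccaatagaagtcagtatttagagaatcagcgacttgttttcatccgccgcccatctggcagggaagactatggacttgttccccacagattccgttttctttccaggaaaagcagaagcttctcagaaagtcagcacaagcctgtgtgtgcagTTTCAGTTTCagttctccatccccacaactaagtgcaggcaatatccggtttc
Oas1a: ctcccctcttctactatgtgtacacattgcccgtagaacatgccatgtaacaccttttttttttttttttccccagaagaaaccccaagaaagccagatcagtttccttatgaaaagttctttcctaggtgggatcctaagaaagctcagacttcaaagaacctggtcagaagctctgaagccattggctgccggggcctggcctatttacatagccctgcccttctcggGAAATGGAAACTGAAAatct

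Rnf213, a large ubiquitin ligase, had the smallest p of the lower genes, at 40.7, 46.5, 40.6 and 44.7 CPM with nicotine, 72.2, 58.1 and 60 with vehicle and 51.9 to 59.7 in air, so that every nicotine library lay below all others (-0.56 ± 0.10, adjusted p = 0.0783). Ifi27l2a was at 3.78, 2.96, 3.56 and 1.89 CPM against 10.4, 7.49 and 4.72 (-1.29 ± 0.28, adjusted p = 0.118). Gbp7, a guanylate-binding GTPase, was at 20.7, 21.4, 18.1 and 20 CPM against 32.1, 35.5 and 26.8, with air at 6.6 to 24.5 (-0.65 ± 0.29, adjusted p = 0.228). The antiviral synthetase genes Oas1a (-1.12 ± 0.31, adjusted p = 0.137) and Oas2 (-1.2 ± 0.38, adjusted p = 0.152) were highest in vehicle 1 and 2. The list mean was 3.38, 2.94, 3.03 and 2.94 log2 CPM in nicotine 2, 3, 5 and 6, 3.57, 3.65 and 3.23 in vehicle 1, 2 and 4 and 2.42 to 3.31 in air, so nicotine 2 lay above vehicle 4. Without vehicle 1 and 2 the median was -0.11.

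No gene of the inflammation or cell division lists passed the adjusted threshold. At an unadjusted p under 0.05 (edgeR), 3 of 21 and 10 of 25 were lower and 0 were higher. Over all genes 10.4% were lower and 8.86% higher at that p. Of the 21 NF-kB targets and cytokines 17 were negative (median -0.26, and -0.07 without vehicle 1 and 2), and Tnf, Ccl12, Nfkb2 and Birc3 did not overlap (19%). The tumour necrosis factor gene Tnf was at 1.83, 0.658, 1.16 and 1.03 CPM against 4.92, 4.09 and 2.71 (-1.71 ± 0.40, adjusted p = 0.122), and the chemokine gene Ccl12 at 0.329 to 0.553 against 1.69, 1.53 and 1.2 (-1.68 ± 0.49, adjusted p = 0.14). Few reads carry either value. Relb, an NF-kB subunit, was at 13.2, 9.54, 16.2 and 11.1 CPM against 22.6, 16.2 and 16.8 (-0.56 ± 0.20), and Selp, an adhesion receptor, ran the other way at under 1 CPM (0.93 ± 0.46). Of the 25 cell cycle genes 24 were negative (median -0.48, and -0.20 without vehicle 1 and 2), and Mki67, Ccnb1, Bub1b, Mcm5 and Mcm6 did not overlap (20%). Mki67, a marker of dividing cells, was at 5.68, 6.25, 1.86 and 5.61 CPM against 20.4, 8.46 and 10.6, with air at 2.89 to 14.2 (-1.44 ± 0.45, adjusted p = 0.152). Birc5, of the mitotic spindle, was at 0.913, 0.74, 1.01 and 0.553 CPM against 3.53, 1.8 and 0.692 (-1.29 ± 0.47), and at 0.19 without vehicle 1 and 2.

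Among the 10 lower genes with the smallest p, Peg3 alone overlapped between groups. Bcl6b, a repressor of transcription in endothelium, was at 46.1, 34.4, 37.4 and 38.6 CPM with nicotine, 75.4, 91.9 and 53.7 with vehicle and 53.2 to 89.8 in air (-0.91 ± 0.18, adjusted p = 0.0783), and it also passed for nicotine minus air (-0.77, adjusted p = 0.0335). Ret, a receptor tyrosine kinase, was at 4.96, 4.69, 3.64 and 5.53 CPM against 8.6, 8.46 and 7.68 (-0.81 ± 0.17, adjusted p = 0.0994), and passed against air (-0.83, adjusted p = 0.0202). The apoptosis inhibitor gene Bcl2 was at 11.3 to 13 CPM against 18.4, 20.5 and 16.2 (-0.63 ± 0.12, adjusted p = 0.0783). The others were Scgb1c1 (-0.92 ± 0.18), Myef2 (-0.74 ± 0.14), the protocadherin gene Pcdh19 (-0.65 ± 0.13), Tmem173, which encodes the adaptor STING (-0.82 ± 0.17), and the imprinted gene Peg3 (-1.07 ± 0.23), besides Rnf213 and Ifi27l2a. Myef2 also passed for nicotine minus air (-0.57, adjusted p = 0.0478). Peg3 was at 17.6 to 24.4 CPM against 71.8, 34.8 and 23.3, the highest value being vehicle 1. Of 22 angiogenic endothelial genes 17 were negative (median -0.20), and of 9 general endothelial markers 5 (median -0.08). Without vehicle 1 and 2 these medians were -0.12 and 0.02.

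In RNA processing, ribosomal and noncoding lists vehicle 1 and 2 were high and vehicle 4 lay near nicotine. Of 26 splicing and nonsense-mediated decay genes 20 were negative (median -0.31), with Son, Upf2 and Srsf4 lower (11.5%) and Upf1 higher (3.85%) without overlap. Son, a splicing scaffold, was at 313, 322, 311 and 300 CPM against 598, 437 and 323 (-0.54 ± 0.14, adjusted p = 0.125), and the splicing factor gene Prpf39 at 23.9 to 33.1 against 58.6, 49.3 and 31.7 (-0.70 ± 0.16). All 24 cytosolic ribosomal protein genes were negative (median -0.38) and 0 were without overlap, with Rpl32 at 142 to 235 CPM against 363, 306 and 163 and Rplp1 at 304 to 515 against 807, 698 and 347. Of 14 long noncoding RNAs 13 were negative (median -0.61), with Malat1 at 1572, 1198, 1412 and 1106 CPM against 3113, 2361 and 1032 and the imprinting RNA Kcnq1ot1 at 15.9, 9.95, 14.9 and 8.37 against 41.5, 31 and 12.3. Without vehicle 1 and 2 the medians were 0.04, 0.15 and 0.29, opposite in sign, so no direction is given for these 3 lists. That setting leaves vehicle 4 against nicotine libraries on both sides of the division seen above. The ribosomal list mean was 8.27 and 8.15 log2 CPM in nicotine 2 and 5 against 8.63 and 8.53 in vehicle 1 and 2. It was 7.91 and 7.71 in nicotine 3 and 6 against 7.86 in vehicle 4.

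**Figure D4:**
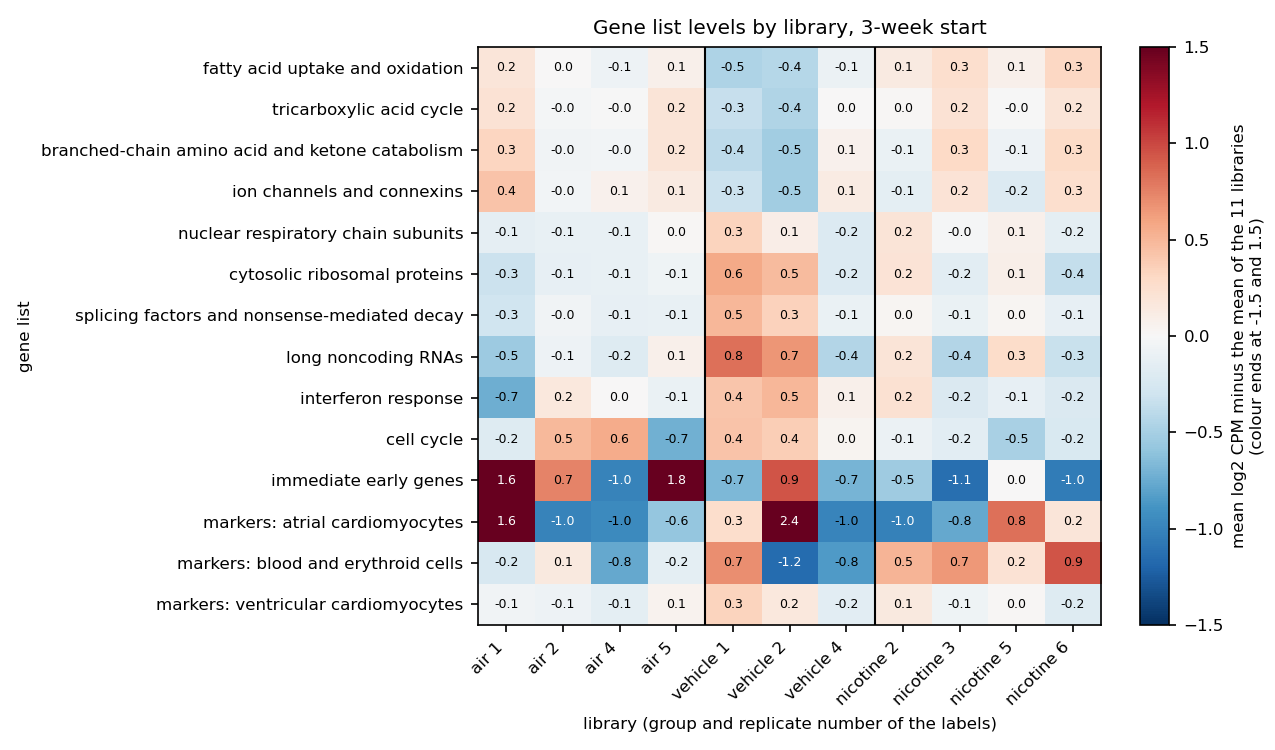
Mean log2 CPM of 14 gene lists in each 3-week library, minus the mean of the 11 libraries, in colour and digits. Vehicle 1 and 2 are low in the fatty acid list and high in the ribosomal and noncoding lists, while vehicle 4 lies nearer to nicotine.

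Markers of cardiac stress did not pass the test. Nppb, brain natriuretic peptide, was at 205, 181, 209 and 152 CPM with nicotine, 212, 520 and 266 with vehicle and 195 to 441 in air (-0.83 ± 0.27, adjusted p = 0.153). Nppa, atrial natriuretic peptide, was at 114, 118, 91.7 and 68 CPM against 95.3, 323 and 140 (-0.92 ± 0.35, adjusted p = 0.183). In both the highest vehicle value was that of vehicle 2, which also had the highest atrial markers. Nppa is itself among those markers. The myosin genes Myh6 (0.35 ± 0.13) and Myh7 (-0.30 ± 0.18) overlapped. Atp2a2, which pumps calcium back into its store, was at 7059, 16421, 7550 and 17518 CPM against 4222, 4998 and 12510 (0.74 ± 0.34, adjusted p = 0.237), so that nicotine 2 and 5 lay below vehicle 4. Acta1 (-0.13 ± 0.39), Ankrd1 (0.02 ± 0.17), Postn (-0.37 ± 0.27), Col1a1 (0.06 ± 0.20) and Col4a1 (-0.04 ± 0.15) had adjusted p-values of 0.431 to 0.947 (edgeR), and of 32 matrix genes 16 were positive. Col4a1, a basement membrane collagen, was at 296 to 407 CPM with nicotine and 268 to 475 with vehicle but 616 to 714 in air, and passed for nicotine minus air (-0.87, adjusted p = 0.0121).

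Blood and erythroid markers had 7 of 7 measured genes positive (median 0.60), with a mean log2 CPM of 5.1 to 5.83 in nicotine and 5.58, 3.73 and 4.05 in vehicle 1, 2 and 4, so that vehicle 1 lay within the nicotine range and the other two below it. The median was 1.31 without vehicle 1 and 2. Alas2, a heme synthesis gene of red cell precursors, was at 35 to 61.6 CPM against 38.3, 10.4 and 17.9 (1.03 ± 0.34). Immediate early genes had 18 of 22 negative (median -0.70), but the median was 0.20 without vehicle 2 and 0.11 without vehicle 1 and 2. Glucocorticoid targets had 14 of 22 positive (median 0.18, and 0.15 without vehicle 1 and 2), and Zbtb16, Fkbp5 and Ddit4 did not overlap (13.6%). Zbtb16, a zinc finger repressor, was at 74, 106, 51.4 and 126 CPM against 23.6, 35.7 and 47.7, with air at 24.7 to 131 (1.32 ± 0.50, adjusted p = 0.183).

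The same contrast in mice that started at 3 months of age gave 0 genes past the threshold (0%), with 12.2% of genes higher and 6.66% lower without overlap among 4 and 4 libraries. Of the 43 fatty acid genes 26 were positive there (median 0.04), and 10 were higher and 3 lower without overlap. Pdk4 was at 1004 ± 191 CPM against 663 ± 256 (SD, n = 4 each, 0.60 ± 0.38), and Ucp3 at 80.5 ± 31.4 against 58.5 ± 29.9 (0.46 ± 0.34). Acot1 (-0.42 ± 0.28) had the opposite sign from the 3-week start. The difference of the effect between starting ages was 1.36 ± 0.56 for Pdk4 and 1.17 ± 0.51 for Ucp3, with adjusted p-values of 0.718 and 0.743 (edgeR). The effects on these genes were thus not shown to differ between ages.

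**Figure D5:**
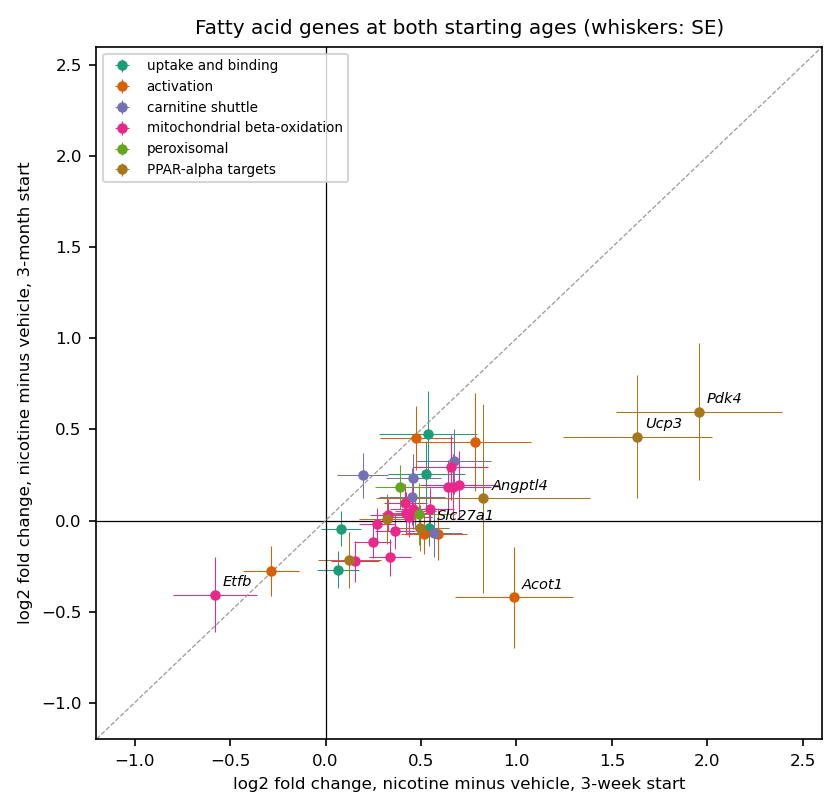
Log2 fold change, nicotine minus vehicle, of 41 of the 43 fatty acid genes at the 3-week start (horizontal) and the 3-month start (vertical), with SE, coloured by role. The median over all 43 is 0.48 on the horizontal and 0.04 on the vertical axis.

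Over all genes the difference between ages passed for 0 of 15500 (0%), with 1000 (6.45%) at an unadjusted p under 0.05. DESeq2 called 29, and edgeR without vehicle 4 called 313. The smallest p-values among genes with a more positive effect at the 3-week start were those of Retsat (0.85 ± 0.17), Vwc2 (1.6 ± 0.30), Mettl7a1 (0.60 ± 0.13), Smco1 (0.87 ± 0.18) and the proteoglycan gene Spock2 (1.72 ± 0.38), each with adjusted p = 0.234 (edgeR). Vwc2 was at 4.91 ± 0.934 CPM (SD, n = 4) against 2.39 ± 0.21 (n = 3) at the 3-week start and 3.32 ± 0.264 against 4.93 ± 1.09 (n = 4 each) at the 3-month start, in the opposite order. Among genes with a more negative effect they were those of Rnf213 (-0.69 ± 0.14), Bcl2 (-0.78 ± 0.17), the laminin gene Lama4 (-0.59 ± 0.12), Ints2 (-1.07 ± 0.23) and the collagen gene Col15a1 (-0.81 ± 0.19), with adjusted p-values of 0.234 to 0.283 (edgeR). Lama4 was at 88.2 ± 9.21 CPM against 109 ± 2.69 at the 3-week start and 109 ± 8.67 against 88.9 ± 3.55 at the 3-month start. Retsat was at 74.6 ± 4.95 CPM against 79.9 ± 7.26 at the 3-month start.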

How the data were processed

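RNA from left ventricle was sequenced. The authors deposited a table of unnormalized whole-number counts for 49315 genes. The submitters' processing notes name Trimmomatic 0.36 and STAR 2.5.2b, and also DESeq2 and featureCounts (Subread 1.5.2). The build, annotation and strand setting were not given in the sources used here. Reads of overlapping and paralogous genes are therefore uncertain. Count columns were matched to libraries by name. Symbols came from GENCODE vM21 by gene ID (49056 matched).

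Counts were tested with edgeR 4.0.16 in R 4.3.3 (filterByExpr minimum count 10, TMM, robust quasi-likelihood fit of 6 groups over 23 libraries, 17 residual degrees of freedom, Benjamini-Hochberg threshold 0.05 over 15500 genes), with DESeq2 1.42.0 as an alternative. Log2 CPM uses a prior count of 2. The members, the 47 gene lists (817 entries) and the tests were chosen with earlier results of these data known. A rule named, in each direction, the 10 genes of smallest p at a mean log2 CPM of at least 1, up to 4 per list and 2 per fatty acid role, 5 per direction for the difference between ages, Pdk4 and a set of stress genes. It gives 208 genes, of which 78 are described. Which 78, and 34 genes outside the rule (such as Acot1, Acot13, Acadm, Etfb, Plin5, Angptl4, Cpt1b, Gbp7, Chrna2, Chrna10, Chrnb2 and others named behind counts without overlap), were chosen after their values were seen. Single-gene values of some list members are not reported here. Other scalings, filters, fits and left-out libraries were tried.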

Additional observations from a re-analysis of the deposited data

Results flagged for a closer look

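The 274 values examined were genes in the nicotine and air groups, and list means and library-wide values in the nicotine group alone. Of these, 16 had a library far from the other 3 of its group. Chance alone gives about 1 in 20 for independent values, which is close to this share. The values are not independent, as Rpl32, Kcnq1ot1, Cat, Gclm and Rplp1 were all flagged in air library 1. Noncoding genes took 1.19% of the counts of that library, against 1.41 to 1.55% in the other air libraries. Myef2 was at 8.74 CPM in nicotine library 5, against 6.91 to 7.18 in the others. Tmem173 was at 6.66 CPM in nicotine library 2, against 4.77 to 5.05 in the others. Mki67 was at 1.86 CPM in nicotine library 5, against 5.61 to 6.25 in the others. Hmox1 was at 23.2 CPM in nicotine library 2, against 12.3 to 14.1 in the others. Birc3 was at 9.54 CPM in nicotine library 3, against 10.6 to 10.7 in the others. Eci2 was at 124 CPM in nicotine library 5, against 131 to 132 in the others. Ddit4 was at 58.9 CPM in nicotine library 2, against 35.1 to 38.4 in the others. Acot1 was at 12 CPM in air library 2, against 5.64 to 6.32 in the others. Impa2 was at 13.5 CPM in air library 2, against 11 to 11.2 in the others. Rpl32 was at 151 CPM in air library 1, against 172 to 174 in the others. Kcnq1ot1 was at 8.14 CPM in air library 1, against 11.1 to 11.5 in the others. Cat was at 261 CPM in air library 1, against 216 to 220 in the others. Gclm was at 30.5 CPM in air library 1, against 23.3 to 24 in the others. Rplp1 was at 316 CPM in air library 1, against 380 to 393 in the others. The lipid storage and lipolysis list was at 5.07 log2 CPM in nicotine library 6, against 5.31 to 5.35 in the others. The heat shock list was at 7.36 log2 CPM in nicotine library 5, against 7 to 7.06 in the others.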

How the results depend on the processing

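The count of genes past the threshold, 0 with all libraries, was 1 (Retsat) with upper-quartile scaling, with protein-coding genes alone and with the noncoding share as a covariate. It was 3 without a filter on low counts, 260 in DESeq2, and 0 to 4793 with libraries left out in turn (4793 without vehicle 4). For the difference between ages it was 29 in DESeq2 and 0 to 313 with libraries left out. Leaving out a library gave 485 to 3324 higher and 492 to 3423 lower genes without overlap, as fewer samples must. The fatty acid median was 0.383 to 0.6495 with libraries left out and 0.1842 without vehicle 1 and 2, where the lone vehicle library is assumed to vary like those elsewhere. That last setting also compares vehicle 4 alone with nicotine libraries on both sides of the division on the first component. In it, 78 of the 208 genes given by the naming rule had the opposite sign, against at most 8 in any other setting. Among the genes described it turned Cat (-0.0057), Postn (0.2295), Chrnb2 (0.4006), Cd36 (-0.0549), Atp2a2 (-0.0708), Rpl32 (0.1688), Rplp1 (0.2029), Malat1 (0.3295), Birc5 (0.1915), Etfb (0.401), Myh6 (-0.0151), Chrna2 (-0.346), Chrnb1 (0.3471), Col1a1 (-0.0909), Acot13 (0.2699), Ppargc1b (0.3087) and Ankrd1 (-0.2206). Over single libraries left out, the value ranged on both sides of 0 for Postn (-0.6155 to 0.2819), Col4a1 (-0.2246 to 0.2066), Acta1 (-0.2523 to 0.0211), Col1a1 (-0.1095 to 0.1721) and Ankrd1 (-0.1844 to 0.169). The cause was not tested. No paired analysis was possible because the groups share 1 replicate number.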
